A study of Homo sapiens with 2 samples.

Results

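Metallothionein genes, their regulator gene MTF1 and the zinc exporter gene SLC30A1 were examined in the human cell line LP-1, which was established from multiple myeloma, a cancer of plasma cells. The 10 genes listed were MT1X, MT2A, MT1A, MT1E, MT1F, MT1G, MT1H, MT1M, SLC30A1 and MTF1. The array annotation assigned at least 1 probe set, a group of probes summarised to 1 value, to 9 of them, out of 18377 genes with a value in all. MT1A has no row under its name in the annotation used here and was not analysed. The 9 genes have 11 probe sets, of which 3 belong to MT2A, and 0 probe sets carry a member's symbol together with another gene's.

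The study compared 2 kinds of LP-1 cells on 1 whole-transcript Affymetrix array each. HIF2A cells stably carried the vector pRUF-IRES-GFP with full-length human HIF-2α, a transcription factor subunit that is degraded when oxygen is plentiful and whose gene is EPAS1. Vector control cells carried the same vector without HIF-2α. The sources used here do not say whether either line was 1 clone or a pool, nor how much oxygen and metal the cells met.

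Metallothioneins are small proteins rich in cysteine that bind zinc, copper and cadmium and buffer the free zinc of a cell. MTF1 is a zinc finger transcription factor that binds DNA when zinc is plentiful, at short sequences called metal response elements. Its best known targets are the metallothionein genes and SLC30A1, so a cell that meets excess zinc both binds it and pumps it out. Glucocorticoids, oxidative stress and low oxygen also affect metallothionein transcription in several cell types.

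The sequences before 3 metallothionein genes and SLC30A1 are shown because they hold matches to the core of the element through which MTF1 acts. In the arrays these 3 metallothioneins were lower in HIF2A cells, while SLC30A1, with a difference of 0.08, hardly differed. Of the listed metallothioneins only these 3 had a promoter sequence available. Those without one include MT1E and MT1M, whose signals differed little. Whether the number of matches bears on the differences was therefore not tested. Each line gives the 250 bases before the gene start from RefSeq, on build GRCh38.p14, read 5′ to 3′ on the gene's strand. Capitals mark every match, on either strand, to the core of the metal response element, searched as TGCACNC and TGCGCNC.
MT1X, chr16:56682220-56682469, plus strand: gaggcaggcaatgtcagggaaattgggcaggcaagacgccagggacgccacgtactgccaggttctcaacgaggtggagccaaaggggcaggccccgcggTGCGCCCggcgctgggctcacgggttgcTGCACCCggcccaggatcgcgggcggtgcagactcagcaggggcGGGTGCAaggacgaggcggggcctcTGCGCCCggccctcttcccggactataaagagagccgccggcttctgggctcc
MT2A, chr16:56608334-56608583, plus strand: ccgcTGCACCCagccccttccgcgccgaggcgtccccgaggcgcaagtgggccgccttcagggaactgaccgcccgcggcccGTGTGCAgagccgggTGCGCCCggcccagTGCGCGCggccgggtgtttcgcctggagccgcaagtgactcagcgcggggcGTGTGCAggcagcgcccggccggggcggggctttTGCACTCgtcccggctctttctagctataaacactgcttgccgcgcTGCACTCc
MT1H, chr16:56669564-56669813, plus strand: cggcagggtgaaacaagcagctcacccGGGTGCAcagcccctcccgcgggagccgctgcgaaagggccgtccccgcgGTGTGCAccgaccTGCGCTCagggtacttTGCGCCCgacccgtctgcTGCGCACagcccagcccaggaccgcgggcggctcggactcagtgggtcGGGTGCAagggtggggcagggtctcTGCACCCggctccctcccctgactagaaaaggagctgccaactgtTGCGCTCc
SLC30A1, chr1:211579162-211579411, minus strand: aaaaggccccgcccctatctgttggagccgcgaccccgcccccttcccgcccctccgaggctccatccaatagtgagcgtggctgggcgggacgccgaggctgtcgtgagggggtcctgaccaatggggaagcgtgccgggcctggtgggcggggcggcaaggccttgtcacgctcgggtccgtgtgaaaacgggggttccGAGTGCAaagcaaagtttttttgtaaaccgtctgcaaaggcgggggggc

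The MT1X stretch holds 4 core matches, that of MT2A 7 and that of MT1H 8. SLC30A1 has 1 match and MTF1 has 0. Among 35116 human promoter stretches of the same length, TGCACNC was found in 9.87% and TGCGCNC in 16.8%. At least 1 match of either form was found in 24.8% of them, at least 4 in 0.370%, at least 7 in 0.0313% and at least 8 in 0.0171%. MT1B and MT4, relatives outside the list, have 3 matches each, a number reached by 1.58% of stretches.

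Some matches lie at like distances in several MT1 and MT2 genes. On the strand of the gene, a core begins 53 bases before the start in MT1X, MT1H and MT1B, and 54 bases before it in MT2A. A match on the opposite strand begins 78 bases before the start in MT1X and MT1H and 79 in MT1B, while that of MT2A begins 88 bases before it. The matches of MT4 begin 209, 196 and 90 bases before the start, the last on the opposite strand and near the 88 of MT2A. ACGTG, the core of the hypoxia response element to which HIF binds, was found at 1 place in the MT1X stretch, on the opposite strand 202 bases before the start, and at 0 places in those of MT2A, MT1H, SLC30A1 and MTF1. It occurs in 18.5% of all stretches. These are matches of letters and not measured binding sites.

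**Figure D1:**
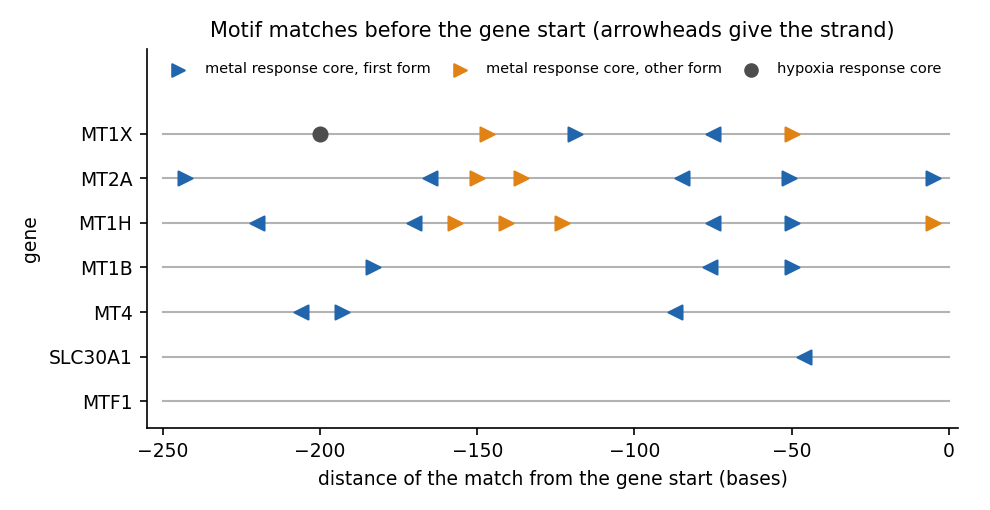
Positions of motif matches in the 250 bases before the start of 5 metallothionein genes, SLC30A1 and MTF1; the horizontal axis is the distance from the gene start in bases. Arrowheads to the right are matches on the gene's strand and to the left on the opposite strand, blue for TGCACNC and orange for TGCGCNC, and the grey circle is ACGTG. MT2A and MT1H hold 7 and 8 metal response cores, SLC30A1 holds 1 and MTF1 holds 0.

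EPAS1 itself had a log2 signal of 9.05 in HIF2A cells and 3.70 in vector control cells, so the arrays follow their labels. All 7 plasma cell marker genes checked, such as SDC1 and IRF4, lay between 7.53 and 10.47 in HIF2A cells and between 7.58 and 10.13 in vector control cells. Among them TNFRSF17, the BCMA gene, had 7.68 in HIF2A cells and 8.71 in vector control cells, a difference of -1.03. Of 3 T cell, 3 myeloid and 3 stromal markers, 0, 1 and 3 exceeded in both arrays the 95th percentile of 359 olfactory receptor genes, which serves here as the background level. Those markers lay between 3.09 and 4.59 in HIF2A cells and between 2.67 and 4.72 in vector control cells. That level was 3.58 in HIF2A cells and 3.59 in vector control cells. With 1 array per group there is no replicate, so no difference below has an error or a test. Differences are HIF2A minus vector control on the log2 scale.

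Of the 7 measured metallothioneins of the list, 6 had a lower signal in HIF2A cells, whereas MT1M, SLC30A1 and MTF1 had a slightly higher one. The largest difference was that of MT1X, a widely expressed metallothionein. MT1X gave 4.37 log2 units in HIF2A cells, against 6.22 in vector control cells, which is a difference of -1.85 or 3.61-fold lower. The HIF2A value is dim, below the 4.59 of the stromal marker COL1A1 in the same cells. The size of the fold may thus be affected by background. In RNA from a whole culture, fewer cells with the transcript and less of it per cell cannot be told apart. Of the 11469 genes past a filter on dim signals, described below, 3 had a more negative difference, namely ALDH7A1 at -2.98, SLAMF7 at -2.39 and S100A10 at -2.28. The differences next above MT1X were those of ANXA2 at -1.81, GLUL at -1.80 and NIBAN1 at -1.70. These genes are named only for the closeness of their difference, over 2 arrays, to that of MT1X.

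MT2A, the main metallothionein of many human cell types, was lower on each of its 3 probe sets, by unequal amounts. The brightest had 7.53 in HIF2A cells and 8.15 in vector control cells, a difference of -0.62 or 1.54-fold lower. The middle one had 6.14 in HIF2A cells and 6.68 in vector control cells, a difference of -0.54. The dimmest had 4.53 in HIF2A cells and 5.85 in vector control cells, a difference of -1.32 or 2.50-fold lower. The gap of 0.78 between the largest and smallest of the 3 differences is wide. Among 397 genes with at least 2 probe sets past the filter the median gap was 0.13, and 8.06% had a gap as large as that of MT2A or larger. The array identifier of the dimmest lies between those of MT3 and MT1M, which stand in the same gene cluster as MT2A. The identifiers of the brightest and the middle one lie far from these. The annotation assigns all 3 to MT2A, but whether each reads MT2A or a related locus was not tested. The 3 values may thus not all be those of MT2A.

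MT1G and MT1H, which lie side by side, were also lower. MT1G had 4.93 in HIF2A cells, against 5.63 in vector control cells, a difference of -0.70 or 1.62-fold lower. MT1H had 3.49 in HIF2A cells, below the olfactory receptor level, against 4.29 in vector control cells. Measured against that level it was at least 1.64-fold lower, and its signals as deposited differ by -0.80.

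The other metallothioneins of the list differed little. MT1F had 4.54 in HIF2A cells and 4.88 in vector control cells, a difference of -0.34. MT1E had 4.18 in HIF2A cells and 4.29 in vector control cells, a difference of -0.11. MT1M had 4.97 in HIF2A cells and 4.84 in vector control cells, a difference of 0.13 and the only positive one among the metallothioneins of the list. Across all genes past the filter the robust SD of the differences, a scaled median absolute deviation, was 0.34, so MT1E and MT1M lie within 1 such spread of 0.

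The metal sensor MTF1 had 4.37 in HIF2A cells and 4.19 in vector control cells, a difference of 0.18. The 20 nearest measured genes around MTF1 had a median difference of 0.165, so its value was close to that of its surroundings. SLC30A1, which exports zinc across the plasma membrane, had 5.64 in HIF2A cells and 5.56 in vector control cells, a difference of 0.08. Neither gene shared the lower signal of MT1X and MT2A. MTF1 lay close to the olfactory receptor levels of 3.58 in HIF2A cells and 3.59 in vector control cells. A fall as large as that of MT1X could therefore not have been read above background for MTF1.

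**Figure D2:**
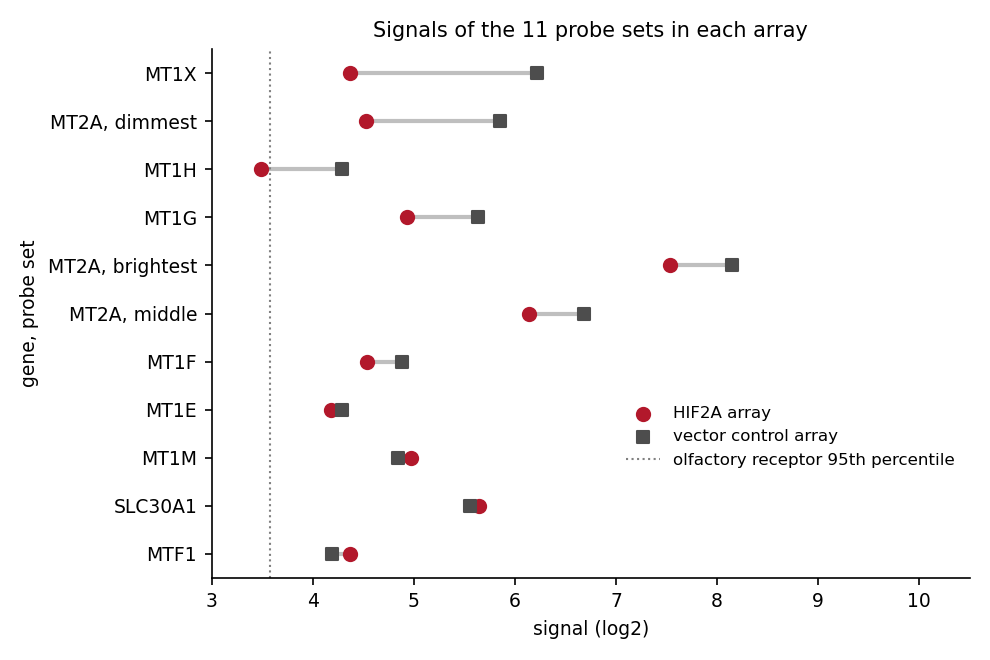
Log2 signal of the 11 probe sets of the 9 measured genes in HIF2A cells (red circles) and the vector control array (grey squares), 1 array each; the dotted line is the 95th percentile of olfactory receptor genes in HIF2A cells, 3.58. The widest separations are those of MT1X and the dimmest MT2A probe set, and MT1H in HIF2A cells lies below the dotted line.

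A gene past the filter had a signal of at least 4.01, the median over probe sets, in its brighter array, and all 9 measured members passed. Taking for MT2A its brightest probe set, 1 of the 9, MT1X, was at least 2-fold lower and 0 were at least 2-fold higher, beside 0.732% and 0.706% of all genes past the filter. With the dimmest MT2A probe set the count is 2. Of the 3 only the dimmest has an identifier between those of MT3 and MT1M, and which of them reads MT2A was not tested. At least 1.5-fold lower were 4 members, MT1X, MT1H, MT1G and MT2A, beside 4.76% of all genes. With 32 added to each linear value, which shrinks dim signals, MT1X stayed past 1.5-fold at -1.02. MT2A on its brightest probe set came to -0.54, MT1G to -0.38 and MT1H to -0.25, all short of it. The dimmest MT2A probe set was not examined with this offset, so whether it stays past 1.5-fold is not given here. A lower signal of any size was found in 6 of the 9, beside 46.1% of all genes. The median difference was -0.34 over the 9 members and -0.62 over the 7 metallothioneins, beside 0.03 over all genes. The genes were chosen by family and function, with the low MT1X signal and the other values of these arrays already in view, so these shares describe the list and are no evidence for it.

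**Figure D3:**
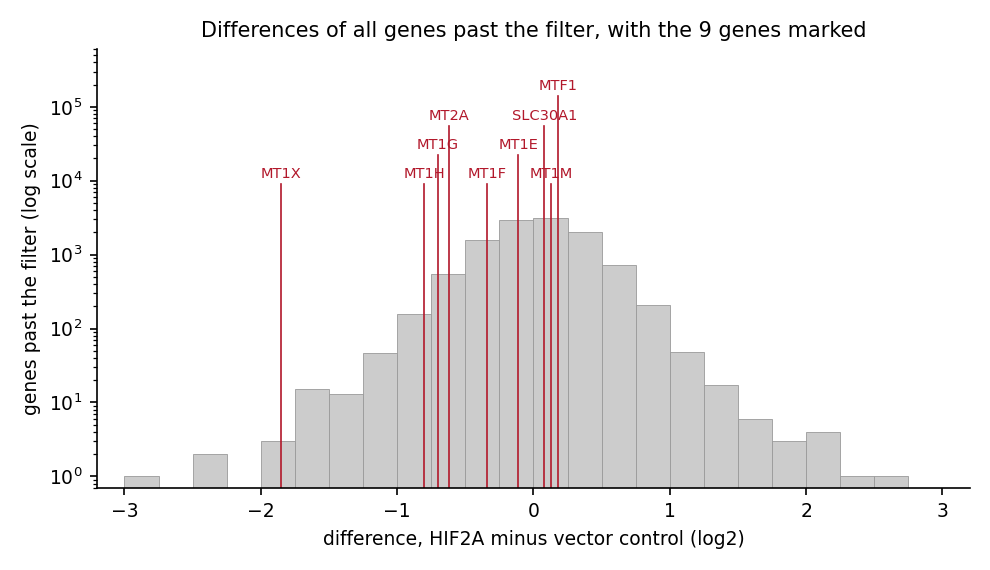
Number of genes (log scale) by difference, HIF2A minus vector control in log2 units, for the 11469 genes past the filter, with the 9 measured members marked in red; EPAS1, at 5.35, lies beyond the axis. MT1X stands at -1.85 in the sparse lower tail, while MT1E, MT1M, SLC30A1 and MTF1 stand near the middle.

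Metallothionein genes and pseudogenes outside the list were mostly lower, 0 of them by 1.5-fold on the signals as deposited, beside 4.76% of all genes past the filter. Their symbols gave 8 probe sets, of which 6 were lower, 1 higher and 1 equal in HIF2A cells, beside 46.1% of all genes past the filter lower. The median difference was -0.17, which is the same with values below the olfactory receptor level raised to it. Past the filter were 5 of the 8, 4 lower and 1 higher, with a median of -0.15. MT1P3 was added to the 8 by the form of its symbol after the values were seen. The pseudogene MT1DP had a difference of -0.39. The pseudogenes MT1JP and MT1IP lay below the olfactory receptor level in HIF2A cells, and neither passed the filter. Measured against that level they were at least 1.22-fold and at least 1.21-fold lower. Their vector control signals, 3.87 and 3.86, were themselves close to background, so these bounds are uncertain. MT1B, MT1P3 and MT4 had differences of -0.19, -0.15 and -0.10. MT3, best known from the brain, had 5.03 in HIF2A cells and 4.79 in vector control cells, a difference of 0.24, and MT1HL1 had 3.97 in both. A probe set shared by MT1L and the unrelated gene NUTF2 had 5.21 in HIF2A cells and 5.61 in vector control cells. Metallothionein transcripts are so alike in sequence that probes of one may also bind another, which was not tested here, so the 17 probe sets named for a single metallothionein cannot be taken as independent readings.

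The genes on either side of the cluster had no common direction. In gene order on chromosome 16, 13 metallothionein genes and pseudogenes with a value of their own stand together, and 11 of them were lower and 2, MT3 and MT1M, higher. Of all genes past the filter, 46.1% were lower. Among the 10 nearest measured genes before the cluster 7 were lower and 3 higher, with a median of -0.145, and among the 10 after it 4 were lower and 6 higher, with a median of 0.065. Over both sides the median was -0.075, and 0 of the 20 were at least 2-fold apart. Of all genes past the filter, 0.732% were at least 2-fold lower and 0.706% at least 2-fold higher. With shares so small, 0 of 20 does not set these neighbours apart. The closest gene before the cluster, BBS2, which serves the primary cilium, had 5.02 in HIF2A cells and 5.74 in vector control cells, a difference of -0.72. The closest after MT1X, the nuclear pore gene NUP93, had 8.18 in HIF2A cells and 8.09 in vector control cells. The 611 genes of chromosome 16 past the filter had a median of 0.05.

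**Figure D4:**
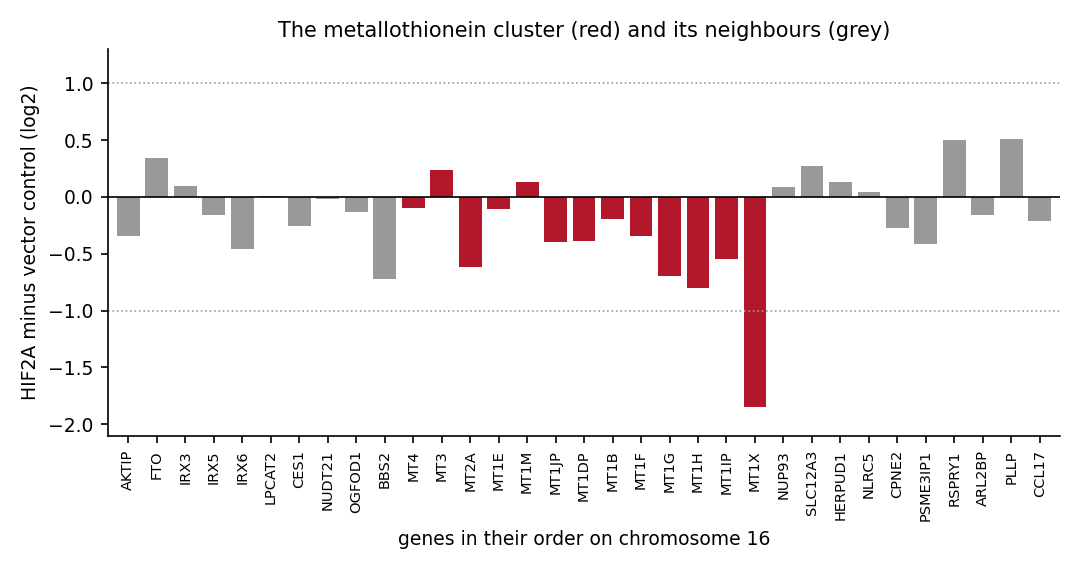
Difference, HIF2A minus vector control in log2 units, of 13 metallothionein genes and pseudogenes (red) and the 10 nearest genes past the filter on each side (grey), in their order on chromosome 16; dotted lines mark 2-fold. MT2A is drawn at -0.62 from its brightest probe set, and its dimmest, at -1.32, would pass the 2-fold line as MT1X does. Only the dimmest has an array identifier between those of MT3 and MT1M, and which probe set reads MT2A was not tested.

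Zinc transporters mostly had a higher signal in HIF2A cells. The SLC39A family moves zinc into the cytosol, and of its 14 genes 12 passed the filter, 11 of them higher and 1 lower, beside 52.6% of all genes higher. Their median difference was 0.36, beside 0.03 over all genes. At least 1.5-fold higher were 2 of the 12, beside 5.67% of all genes. SLC39A10, a plasma membrane importer, had 6.0 in HIF2A cells and 5.11 in vector control cells, a difference of 0.89 or 1.85-fold higher. MTF1 represses this gene in mouse cells rich in zinc. SLC39A13, of intracellular membranes, had 5.48 in HIF2A cells and 4.80 in vector control cells, a difference of 0.68, among neighbours with a median of 0.28. SLC39A9 and SLC39A11 had differences of 0.54 and 0.49, and the lower member SLC39A4 had -0.04.

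The SLC30A family moves zinc out of the cytosol. Of its 10 genes 8 passed the filter, 7 higher and 1 lower, beside 52.6% of all genes higher, with a median difference of 0.155. At least 1.5-fold apart in either direction were 0, beside 4.76% of all genes lower and 5.67% higher by that much. With such shares, 0 of 8 does not set the family apart. SLC30A5 and SLC30A7, which load the secretory pathway with zinc, had differences of 0.44 and 0.33. SLC30A9, which exports zinc from mitochondria, had 6.28 in HIF2A cells and 6.62 in vector control cells, a difference of -0.34.

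Genes of copper handling, the other metal that metallothioneins bind, went both ways. Of 12 listed, 10 passed the filter, 6 higher and 4 lower, beside 52.6% of all genes higher, with a median difference of 0.05. That median was -0.155 with a stricter filter at the 75th percentile of signals. ATP7A, a pump that moves copper into the secretory pathway, had 4.58 in HIF2A cells and 3.81 in vector control cells, a difference of 0.77. ATOX1, which hands copper to it, had a difference of 0.37 among neighbours with a median of 0.52. CCS, the chaperone that loads copper into superoxide dismutase, had 5.53 in HIF2A cells and 6.10 in vector control cells, a difference of -0.57, and SOD1 itself had 9.63 in HIF2A cells and 10.11 in vector control cells, a difference of -0.48. The copper importer SLC31A1 had -0.32.

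Genes reported as MTF1 targets outside the metallothioneins went both ways. All 7 passed the filter, 4 lower and 3 higher, beside 46.1% of all genes lower, with a median difference of -0.09. SELENOH, a selenoprotein gene known as an MTF1 target in mouse, had 5.59 in HIF2A cells and 6.39 in vector control cells, a difference of -0.80 or 1.74-fold lower. HAMP, the gene of the iron hormone hepcidin, had 3.98 in HIF2A cells and 4.23 in vector control cells, a difference of -0.25. CEBPA had -0.10 and GCLC -0.09. PGF, a growth factor of the VEGF family, had 4.09 in HIF2A cells and 3.88 in vector control cells, a difference of 0.21. HAMP and PGF each reached the filter level of 4.01 only in their brighter array, so their directions rest on dim signals. SLC39A10, given above, had 0.89. Since MTF1 represses SLC39A10 in mouse cells, the list is not one of genes with a single known direction. Of genes whose proteins act with MTF1 or with its coactivator p300, EP300 had 0.07, CREBBP 0.40, SP1 -0.22 and HIF1A 0.07.

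**Figure D5:**
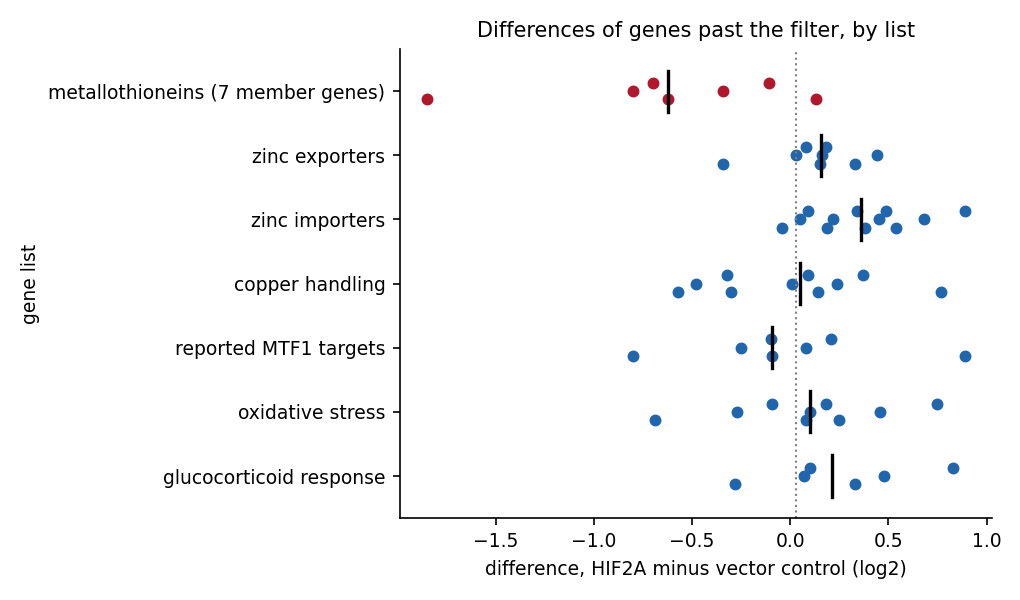
Difference, HIF2A minus vector control in log2 units, of each gene past the filter in 7 lists (points) with the list's median (black bar); the dotted line is the median of all genes past the filter, 0.03. Metallothioneins of the list have a median of -0.62, zinc importers one of 0.36 and zinc exporters one of 0.155.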

How the data were processed

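RNA of 2 LP-1 cell lines was measured on 1 array each. The deposited values are log2 signals for 28869 probe sets, for which the submitters' processing notes name Affymetrix Expression Console; no version, algorithm or centring is stated there. Base 2 was taken from the highest value, 13.97, because a 16-bit scanner reading cannot pass 11.1 on a natural log scale. The number of arrays limits the precision.

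Of 19310 probe sets with 1 symbol, 19279 were matched by Entrez number to RefSeq of GRCh38.p14. A gene took its probe set with the highest mean, and passed the filter at 4.01. No test was possible with 1 array per group. Promoter sequences came from RefSeq and were found for MT1X, MT2A, MT1H, SLC30A1, MTF1, MT1B and MT4; matches were counted in the 250 bases before the start. Protein sequences were not used here.

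All members, other metallothioneins, up to 4 higher and 4 lower genes of each list, the 10 genes on each side of the cluster and the 3 on each side of MT1X in the order of differences may be named. The members and lists were chosen with earlier results of these data known. The code was tested on simulated data. Alternatives were quantile normalization, median centring, 32 added on the linear scale, other probe set choices, filters, folds and a floor at the olfactory receptor level. Python 3.11.15, numpy 2.4.6, pandas 2.3.3 and matplotlib 3.10.9 were used.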

Additional observations from a re-analysis of the deposited data

How the results depend on the processing

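No replicate could be left out, and no result has a test. No paired analysis was possible because each group has 1 array. Of 54 values of single members under other scalings, an offset, other probe set choices and the floor, 0 changed sign and 3 moved by more than the robust SD of 0.34. With 32 added on the linear scale, which shrinks dim signals by construction, MT1X came to -1.02 and MT1H to -0.25, and with the dimmest probe set MT2A came to -1.32. Members at least 2-fold apart numbered 2 with the dimmest probe set, where MT2A joins MT1X, and 4 at 1.5-fold. With the filter at the 75th percentile 3 members were lower, since dim members leave. The median of the members ranged from -0.35 to -0.15. Of 63 list medians, 1 changed sign, that of copper handling. The median of the 20 neighbours ranged from -0.15 to 0.005, so its sign is not settled. Dim probe sets such as MT1H, MT1E and MTF1 lie close to background, where a true difference is compressed. The MT1X signal in HIF2A cells is also dim.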

Other observations

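Metallothioneins take part in the glucocorticoid and oxidative stress responses. Genes of the glucocorticoid response were mostly higher in HIF2A cells, and those of the oxidative stress response went both ways. Whether either response acted on the metallothioneins of these cells was not tested. Of 10 glucocorticoid response genes 6 passed the filter, 5 higher and 1 lower in HIF2A cells, beside 52.6% of all genes higher. Their median difference was 0.215. DUSP1, a phosphatase gene, had 5.89 in HIF2A cells and 5.06 in vector control cells, a difference of 0.83, and the receptor gene NR3C1 had 0.48 among neighbours with a median of 0.415. TSC22D3, a widely used readout of glucocorticoid action, had 0.10, and ZBTB16 had -0.28.

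Of 12 oxidative stress genes 9 passed the filter, 6 higher and 3 lower, beside 52.6% of all genes higher, with a median difference of 0.10. FTL, which encodes the light chain of the iron store ferritin, had 9.35 in HIF2A cells and 8.60 in vector control cells, a difference of 0.75. NQO1 had 0.46 and HMOX1, the heme oxygenase gene, 0.18. SLC7A11, a cystine importer gene, had 3.85 in HIF2A cells and 4.54 in vector control cells, a difference of -0.69, among neighbours with a median of -0.545.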
